A study of Mus musculus with 16 samples.

Results

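The macrophage inflammatory CC chemokines described here are the 5 genes Ccl3, Ccl4, Ccl5, Ccl6 and Ccl9, taken by their symbols from the deposited expression table. They are 5 of its 24001 gene rows, and all 5 were among the 11347 genes with at least 1 FPKM in at least 2 libraries, on which the tests were run. FPKM is the number of sequenced fragments scaled to transcript length and library size. Levels of different genes can therefore be compared per length.

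CC chemokines are small secreted proteins that bind receptors with several membrane spans on leukocytes and draw those cells along a gradient. Ccl3 (macrophage inflammatory protein 1 alpha) and Ccl4 (macrophage inflammatory protein 1 beta) attract monocytes and lymphocytes, and Ccl3 and Ccl5 (RANTES) bind the receptor Ccr1. Ccl6 and Ccl9 (macrophage inflammatory protein 1 gamma) are close paralogs found in rodents that bind Ccr1. In myeloid cells, Ccl3, Ccl4 and Ccl5 are known as genes that Toll-like receptors switch on through NF-kB and interferon regulatory factors.

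The RNA came from dendritic cells grown from NZM2410 bone marrow, an inbred mouse line prone to lupus. Cultures ran for 7 days with GM-CSF at 20 ng/ml plus IL-4 at 10 ng/ml. Each of 4 arms was given agonists or vehicle for 24 h. The agonists were loxoribine for TLR7 (labelled 200 μmol/ml, where the unit itself is doubtful) together with CpG at 1 μg/ml for TLR9. The arms are Ex3a OVX, in which estrogen receptor alpha (ERα) is labelled null, ERKO OVX, labelled ERα short, KO, unoperated and labelled ERα short, and unoperated WT. Mice of both OVX arms were ovariectomized at 4 to 8 weeks of age and received a 0.25 mg, 90-day estradiol pellet. The labels do not settle the alleles. Ex3a OVX and the agonist libraries of ERKO OVX and KO carry the label Esr1(tm1Ksk) with a truncated receptor. The vehicle libraries of ERKO OVX and KO carry Esr1(tm4.2Ksk) with no receptor activity, so the arms are named here by their source labels. The design text speaks of cells high in CD11c and the series title of a knockout in CD11c-positive cells, and no Cre driver is labelled. Each of the 8 groups has 2 libraries, and nothing states that they came from separate mice, so p-values measure the spread between libraries, which may be technical. The labels of 5 libraries report damaged raw read files.

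The 16 libraries differed beyond their groups. Summed FPKM was 612322 to 696321 in the OVX libraries and 481738 to 522287 in the unoperated ones. Depth, roughly estimated from the steps of low values (46.6% to 52.1% of them within 0.1 of a whole read), was 17.6 to 24.0 M fragments in the OVX libraries and 36.5 to 43.8 M in the unoperated ones. Surgery, pellet and these differences between libraries cannot be told apart. The 2 libraries of an OVX group differed by 0.995 to 1.47 times the sampling variance, against 3.48 to 10.1 times in unoperated groups. Each OVX pair was therefore counted as 1 sample, given without an SD. An OVX group thus adds nothing to the estimate of spread, and every SE and p-value of an OVX comparison below rests on the spread of the unoperated KO and WT libraries, which the OVX groups are assumed to share. The targeted gene Esr1 was low throughout: 0.283 to 0.364 FPKM in the 4 Ex3a OVX libraries, 0.982 to 1.16 in ERKO OVX, 1.77 to 2.57 in KO and 0.684 to 1.38 in WT. Of 8 dendritic markers, 7 were tested; Itgax, the gene of CD11c, lay at 86.0 to 155 FPKM and the class II invariant chain Cd74 at 3614 to 8403 FPKM, but Cd209a did not exceed 0.0309 FPKM in any library.

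All 5 genes lie on mouse chromosome 11 within 138.9 kb (GRCm38, the mm10 assembly; GENCODE M21), as a block of protein coding genes. In chromosomal order they are Ccl5 at chr11:83525778-83530518, Ccl9 at chr11:83572919-83578636, Ccl6 at chr11:83587882-83593087 and Ccl3 at chr11:83647844-83649355, all on the minus strand, and Ccl4 at chr11:83662584-83664683 on the plus strand. No run of 50 bases in the annotated transcripts of Ccl3, Ccl4, Ccl5 or Ccl6 was shared with another gene; in Ccl9, 59 of 2996 such runs were shared. The noncoding gene E230016K23Rik overlaps Ccl6, and the kit did not mark strand, so reads of the 2 genes cannot be told apart where they overlap. Promoters from RefSeq (GRCm38.p6) were at hand for 3 of the 5 genes. They are shown because Ccl9 and Ccl6 were lower and Ccl3 higher with agonists in the data below. Each is the 250 bases before the RefSeq start, 5′ to 3′ on the gene's own strand. For Ccl3 that start lies upstream of the GENCODE M21 gene given above. Capitals mark the letters of the motifs named next.
Ccl9 (chr11:83578637-83578886, minus strand): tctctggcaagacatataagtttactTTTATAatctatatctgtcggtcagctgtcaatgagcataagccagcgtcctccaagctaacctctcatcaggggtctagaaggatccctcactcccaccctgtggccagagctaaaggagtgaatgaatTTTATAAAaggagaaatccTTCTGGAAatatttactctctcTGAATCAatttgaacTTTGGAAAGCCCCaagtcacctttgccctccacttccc
Ccl6 (chr11:83593088-83593337, minus strand): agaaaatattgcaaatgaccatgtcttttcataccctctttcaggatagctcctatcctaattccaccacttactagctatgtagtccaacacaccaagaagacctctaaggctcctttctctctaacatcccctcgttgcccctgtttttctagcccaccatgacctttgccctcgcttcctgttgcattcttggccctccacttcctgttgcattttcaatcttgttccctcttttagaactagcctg
Ccl3 (chr11:83649379-83649628, minus strand): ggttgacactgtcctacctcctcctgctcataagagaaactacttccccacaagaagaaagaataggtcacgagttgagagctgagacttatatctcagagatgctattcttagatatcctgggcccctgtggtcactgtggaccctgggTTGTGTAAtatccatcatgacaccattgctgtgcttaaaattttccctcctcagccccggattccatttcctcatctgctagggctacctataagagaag
The search covered both strands for 8 motifs: an NF-kB site of 10 bases, AP-1 (TGANTCA), C/EBP (TTNNGNAA), an IRF site of 10 bases, PU.1 (GAGGAAGT), a TATA box (TATAAA), CRE (TGACGTCA) and the full estrogen response element. The Ccl9 promoter held an NF-kB match on the opposite strand from -35 to -26 relative to the start, an AP-1 match from -53 to -47 and C/EBP matches from -75 to -68 and from -38 to -31; the last overlaps the NF-kB match. It also held TATAAA from -92 to -87 and, on the opposite strand, from -94 to -89 and from -224 to -219. The Ccl3 window held 1 C/EBP match, from -100 to -93, and the Ccl6 window held none of the 8. Among 32851 promoters of the same length, 3.90% held the NF-kB letters, 6.75% AP-1, 36.8% C/EBP, 2.98% IRF, 2.44% PU.1, 12.4% TATAAA, 1.55% CRE and 0.0639% the estrogen response element. The longest run shared by the Ccl9 and Ccl6 windows, both of genes that bind Ccr1, was the 13 bases gccctccacttcc, ending next to the start of Ccl9; the other pairs shared no run longer than 8 bases.

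Ccl5 was the most abundant of the 5 transcripts in every library and ranked between place 3 and place 7 of all genes there. It made up 59.4% to 84.7% of the summed FPKM of the 5 genes, and the 5 together made up 1.49% to 2.41% of all summed FPKM. Ccl6 varied between 279 and 2237 FPKM, Ccl3 between 54.8 and 1488 FPKM, Ccl4 between 23.9 and 819 FPKM, and Ccl9 between 183 and 601 FPKM. Ccl4 and Ccl3 had the widest range between group means, 33.2-fold and 26.1-fold, against 7.97-fold for Ccl6, 3.19-fold for Ccl9 and 2.59-fold for Ccl5. These are RNA levels of whole cultures, in which fewer cells of a type and less RNA per cell cannot be told apart.

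**Figure D1:**
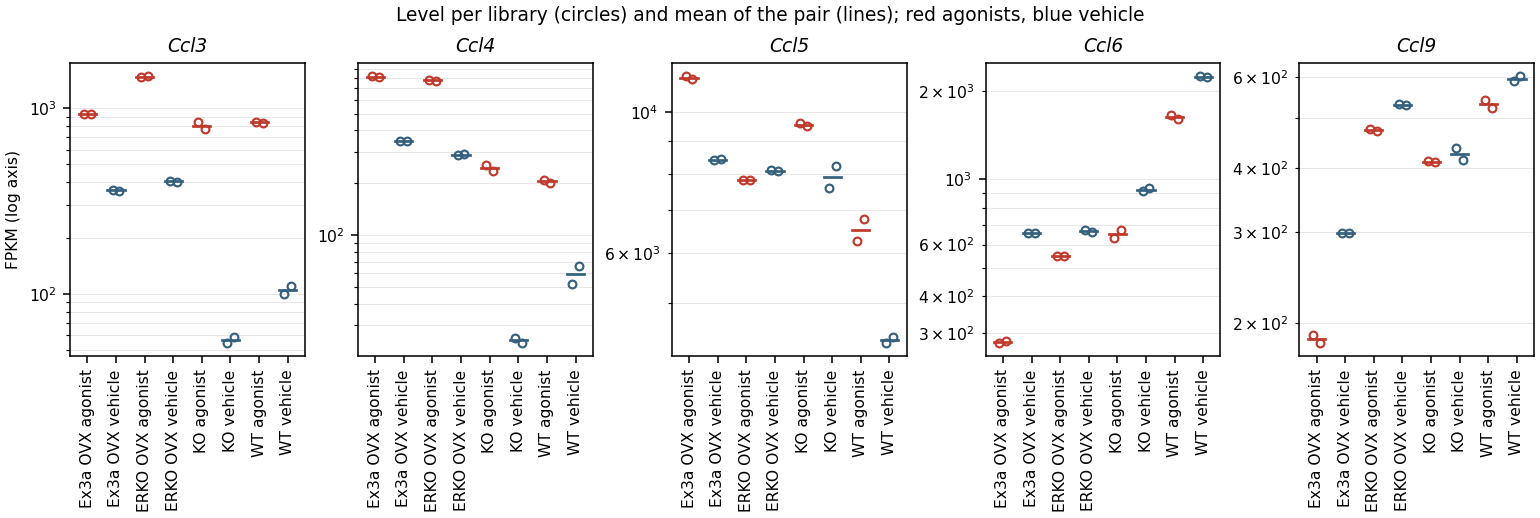
FPKM of each chemokine (y axis, logarithmic and scaled separately for each gene) in the 2 libraries of each of the 8 groups (x axis); circles are libraries, horizontal lines the mean of the pair, red agonists and blue vehicle. Ccl3 and Ccl4 were lowest in KO vehicle libraries (54.8 and 58.9 FPKM for Ccl3, 25.3 and 23.9 FPKM for Ccl4), while Ccl6 was highest in WT vehicle libraries (2237 and 2235 FPKM).

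The agonist comparison asks how each chemokine responded to TLR7 and TLR9 ligands given together. In all 4 arms, Ccl3 and Ccl4 were higher and Ccl6 was lower with agonists. Ccl5 was higher in 3 arms, and Ccl9 was lower in 3. Each difference below is agonists minus vehicle on the log2(FPKM + 1) scale, ± SE from limma, with p-values adjusted by the Benjamini-Hochberg method over all genes tested. In Ex3a OVX, 5 of the 5 chemokines passed an adjusted p of 0.05 (3 higher, 2 lower), against 37.3% of all genes (19.1% higher, 18.2% lower). In ERKO OVX, 4 passed (2 higher, 2 lower), against 37.5% (18.3% higher, 19.2% lower). In KO, 4 passed (3 higher, 1 lower), against 51.3% (25.9% higher, 25.3% lower), and in WT all 5 (3 higher, 2 lower), against 57.9% (30.8% higher, 27.0% lower). Markers of macrophages fell with agonists as well, for 6 of 8 in Ex3a OVX (1 higher), 5 in ERKO OVX (2 higher), 6 in KO (1 higher) and 7 in WT (1 higher). Their sum was 3182 to 3222 FPKM with agonists and 2839 to 2840.3 FPKM with vehicle in Ex3a OVX, where the sum was higher with agonists although most markers were lower. It was 1265 to 1310.1 FPKM with agonists and 1416 to 1459.8 FPKM with vehicle in WT. By group means, the macrophage marker Emr1 was higher with agonists in all 4 arms. It had 1344 FPKM with agonists and 611 FPKM with vehicle in Ex3a OVX, and 624 and 476 FPKM in ERKO OVX. In KO it had 107.9 and 39.6 FPKM, and in WT 150.0 and 64.4 FPKM. The part of macrophages in the chemokine responses was not tested. The median difference of the 5 was 0.43 in Ex3a OVX, -0.05 in ERKO OVX, 0.27 in KO and 0.58 in WT, and that of all genes lay between 0.00 and 0.02.

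Ccl3, which attracts monocytes, NK cells and activated T cells, had 938 and 937 FPKM in Ex3a OVX cells with agonists, against 366 and 361 FPKM with vehicle. In ERKO OVX cells it had 1474 and 1488 FPKM with agonists and 409 and 403 FPKM with vehicle. In KO cells it had 845 and 772 FPKM with agonists and 54.8 and 58.9 FPKM with vehicle. In WT cells it had 845 and 838 FPKM with agonists and 99.5 and 110.4 FPKM with vehicle. Agonist and vehicle libraries did not overlap in any arm. With 2 libraries on each side, such a gap carries little weight, here and below. It also occurred where the difference did not pass, as for Ccl5 in ERKO OVX and Ccl9 in KO. For Ccl3, KO vehicle libraries were the lowest and ERKO OVX agonist libraries the highest. The rise was 1.36 ± 0.08 in Ex3a OVX (2.58-fold by group means, adjusted p = 6.59e-06), 1.87 ± 0.08 in ERKO OVX (3.65-fold, adjusted p = 2.40e-06), 3.81 ± 0.06 in KO (14.2-fold, adjusted p = 4.01e-10) and 2.99 ± 0.06 in WT (8.02-fold, adjusted p = 7.89e-10).

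Ccl4, which lies next to Ccl3 on the opposite strand, had 819 and 816 FPKM in Ex3a OVX cells with agonists, against 346 and 347 FPKM with vehicle. ERKO OVX cells had 778 and 776 FPKM with agonists and 288 and 292 FPKM with vehicle. KO cells had 252 and 234 FPKM with agonists, against 25.3 and 23.9 FPKM with vehicle, and WT cells had 208 and 199.8 FPKM with agonists, against 52.1 and 66.3 FPKM with vehicle. The vehicle pair of WT was the widest pair of any chemokine here. The rise with agonists was 1.24 ± 0.15 in Ex3a OVX (adjusted p = 0.00153), 1.42 ± 0.15 in ERKO OVX (adjusted p = 9.66e-04), 3.25 ± 0.11 in KO (9.86-fold, adjusted p = 1.44e-06) and 1.78 ± 0.11 in WT (3.44-fold, adjusted p = 2.04e-05). The ratio of Ccl3 to Ccl4 was 1.15 in both Ex3a OVX libraries with agonists and 1.04 to 1.06 with vehicle. It was 1.90 and 1.92 in ERKO OVX with agonists and 1.38 to 1.42 with vehicle. In KO it was 3.30 and 3.36 with agonists and 2.16 to 2.46 with vehicle, and in WT 4.07 and 4.19 with agonists and 1.67 to 1.91 with vehicle. In each of the 4 arms the ratio was thus higher with agonists.

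Ccl5, a T cell and monocyte attractant, was already abundant without agonists and moved less than Ccl3 and Ccl4. Ex3a OVX cells had 11377 and 11257 FPKM with agonists, against 8412 and 8426 FPKM with vehicle, a difference of 0.43 ± 0.06 (adjusted p = 5.25e-04). ERKO OVX cells had 7811 and 7829 FPKM with agonists, against 8102 and 8067 FPKM with vehicle, and this difference of -0.05 ± 0.06 did not pass (adjusted p = 0.552; 95% interval -0.18 to 0.08). KO cells had 9594 and 9504 FPKM with agonists, against 7599 and 8227 FPKM with vehicle (0.27 ± 0.04, adjusted p = 4.23e-04). WT cells had 6273 and 6791 FPKM with agonists, against 4337 and 4417 FPKM with vehicle (0.58 ± 0.04, adjusted p = 1.90e-06). The markers of T and NK cells, which also make Ccl5, summed to 28.5 to 43.6 FPKM over 11 genes in Ex3a OVX libraries, 6.26 to 10.6 FPKM in ERKO OVX and 0.453 to 1.33 FPKM in the unoperated libraries. Among them, Gzma reached 20.7 FPKM, Nkg7 8.44 FPKM, Prf1 5.33 FPKM, Cd3g 4.72 FPKM and Cd3e 1.14 FPKM. With agonists, 3 of the 5 tested rose and 1 fell in Ex3a OVX, and 0 rose and 2 fell in ERKO OVX. In KO and WT, where Ccl5 rose, 0 of the 5 tested rose and 0 fell. The part of these cells in the Ccl5 values was not tested.

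Ccl6 ran the other way. It had 279 and 282 FPKM in Ex3a OVX cells with agonists, against 657 and 656 FPKM with vehicle, so that it fell by 1.22 ± 0.04 on the log2 scale (0.427-fold, adjusted p = 2.47e-07). ERKO OVX cells had 549 and 550.0 FPKM with agonists and 674 and 661 FPKM with vehicle (-0.28 ± 0.04, adjusted p = 9.54e-04). KO cells had 634 and 675 FPKM with agonists and 911 and 931 FPKM with vehicle (-0.49 ± 0.03, adjusted p = 6.52e-07). WT cells had 1657 and 1603 FPKM with agonists and 2237 and 2235 FPKM with vehicle (-0.46 ± 0.03, adjusted p = 8.59e-07). All agonist libraries lay below the vehicle libraries of their arm. The overlapping gene E230016K23Rik was at most 4.01 FPKM, far below Ccl6 in every library.

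Ccl9, the neighbour and paralog of Ccl6, moved in the same direction and by less. It had 189 and 183 FPKM in Ex3a OVX cells with agonists, against 299 and 298 FPKM with vehicle, a fall by 0.68 ± 0.04 (0.624-fold, adjusted p = 3.53e-06). In ERKO OVX cells it had 476 and 470.3 FPKM with agonists and 531 and 528 FPKM with vehicle (-0.16 ± 0.04, adjusted p = 0.0111), and this call was lost when libraries were rescaled to the same total (-0.08, adjusted p = 0.139). In KO cells the 412 and 410.0 FPKM with agonists and 436 and 415 FPKM with vehicle differed by -0.05 ± 0.03 (adjusted p = 0.183; 95% interval -0.11 to 0.02), a difference that passed only without the second KO vehicle library (-0.08, adjusted p = 0.0486). In WT cells Ccl9 had 541 and 522 FPKM with agonists and 589 and 601 FPKM with vehicle (-0.16 ± 0.03, adjusted p = 7.56e-04). The ratio of Ccl6 to Ccl9 was lowest in ERKO OVX with agonists, 1.15 and 1.17, and highest in WT with vehicle, 3.80 and 3.72.

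**Figure D2:**
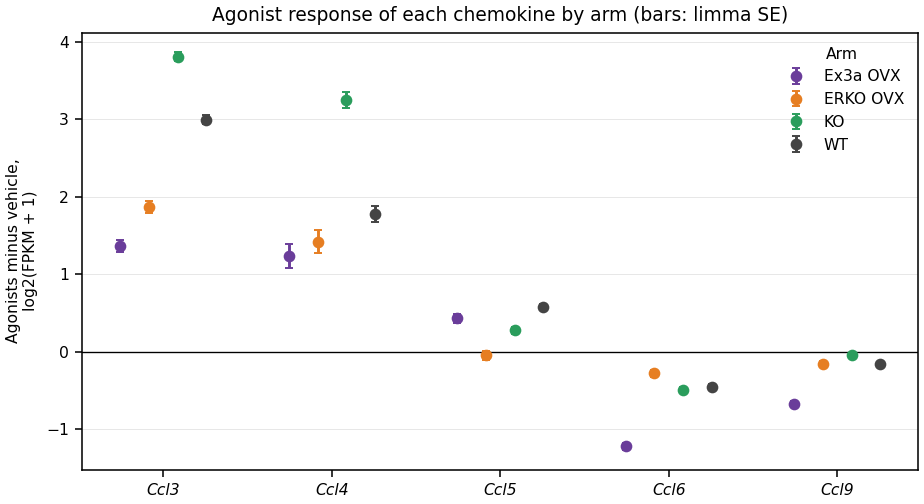
Agonists minus vehicle in log2(FPKM + 1) (y axis) for each chemokine (x axis) in the 4 arms, with limma standard errors; a point above 0 means higher with agonists. Ccl3 and Ccl4 were above 0 in all 4 arms and highest in KO (3.81 and 3.25), Ccl6 was below 0 in all 4 and lowest in Ex3a OVX (-1.22), and the ERKO OVX value of Ccl5 (-0.05) was 0.03 after rescaling to the same total.

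Whether the responses differed between arms was tested directly, as the difference of 2 agonist responses. ERKO OVX and KO libraries each enter 2 of the 3 comparisons. In Ex3a OVX minus ERKO OVX, 4 of the 5 chemokines passed (1 higher, 3 lower), against 31.3% of all genes (16.6% higher, 14.7% lower). In ERKO OVX minus KO, 4 passed (1 higher, 3 lower), against 23.8% (11.4% higher, 12.4% lower). In KO minus WT, 3 passed (2 higher, 1 lower), against 6.95% (2.30% higher, 4.65% lower). The Ccl3 response differed by -0.50 ± 0.11 between Ex3a OVX and ERKO OVX (adjusted p = 0.0108) and by -1.94 ± 0.10 between ERKO OVX and KO (adjusted p = 6.02e-06). It was stronger in KO than in WT by 0.81 ± 0.08 (adjusted p = 6.92e-04). The Ccl4 response differed by -1.83 ± 0.19 between ERKO OVX and KO (adjusted p = 0.00136) and by 1.47 ± 0.15 between KO and WT (adjusted p = 0.00409). Between Ex3a OVX and ERKO OVX it differed by -0.18 ± 0.21, which did not pass (adjusted p = 0.563; 95% interval -0.71 to 0.34).

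For Ccl5 the response was more positive in Ex3a OVX than in ERKO OVX by 0.47 ± 0.08 (adjusted p = 0.00282). It was less positive in ERKO OVX than in KO by -0.32 ± 0.07 (adjusted p = 0.0118) and in KO than in WT by -0.30 ± 0.06 (adjusted p = 0.0148). The last of these did not pass without the first or the second KO agonist library or the first WT vehicle library (adjusted p between 0.052 and 0.0642), with no filter on low values (adjusted p = 0.0919) or in limma without trend and robust fitting (adjusted p = 0.0582). Against ERKO OVX, the Ccl6 and Ccl9 responses of Ex3a OVX differed by -0.94 ± 0.06 (adjusted p = 3.76e-05) and -0.52 ± 0.06 (adjusted p = 2.72e-04). The Ccl6 response in ERKO OVX was 0.21 ± 0.05 above that in KO (adjusted p = 0.0173). With no filter on low values, this Ccl6 difference and the Ccl5 difference between ERKO OVX and KO no longer passed (adjusted p = 0.0643 and 0.0601). In limma without trend and robust fitting, the Ccl6 difference between ERKO OVX and KO did not pass either. The other differences did not pass. For Ccl9 they were -0.11 ± 0.05 between ERKO OVX and KO (adjusted p = 0.121) and 0.11 ± 0.04 between KO and WT (adjusted p = 0.124). The first of these passed with all 16 libraries as single samples (adjusted p = 0.0185) and with the replicate block over 16 libraries (adjusted p = 0.0125). The second was 0.19 and passed after rescaling to the same total (adjusted p = 0.0215). It also passed with the replicate block over 16 libraries (adjusted p = 0.0363). For Ccl6, KO and WT differed by -0.04 ± 0.04 (adjusted p = 0.674), which was 0.04 after rescaling to the same total.

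The comparison of KO with WT sets the unoperated arm with the ERα short source label against wild type cells. With vehicle, KO cells had less Ccl3, Ccl4, Ccl6 and Ccl9 and more Ccl5 than WT cells, and all 5 differences passed, against 60.3% of all genes (31.5% higher, 28.7% lower). Ccl6 had 0.412 times its WT mean (921 ± 14.8 FPKM in KO and 2236 ± 1.50 FPKM in WT, SD, n = 2 each; -1.28 ± 0.03, adjusted p = 9.91e-10). Ccl4 had 0.416 times its WT mean (24.6 ± 0.971 FPKM in KO and 59.2 ± 9.99 FPKM in WT; -1.22 ± 0.11, adjusted p = 1.15e-04), and Ccl3 0.542 times (56.8 ± 2.93 FPKM in KO and 105 ± 7.69 FPKM in WT; -0.87 ± 0.06, adjusted p = 1.61e-06). Ccl9 fell to 425 ± 15.1 FPKM in KO, against 595 ± 8.81 FPKM in WT (-0.48 ± 0.03, adjusted p = 3.66e-07). Ccl5 averaged 7913 ± 444 FPKM in KO and 4377 ± 56.7 FPKM in WT, 1.81-fold higher in KO (0.85 ± 0.04, adjusted p = 1.45e-07).

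With agonists, 3 of the 5 differences passed (1 higher, 2 lower), against 54.8% of all genes (27.2% higher, 27.6% lower). Ccl5 remained higher in KO (9549 ± 63.7 FPKM in KO and 6532 ± 366 FPKM in WT; 0.55 ± 0.04, adjusted p = 3.35e-06). Ccl6 was lower in KO by -1.32 ± 0.03 (654 ± 29.2 FPKM in KO and 1630.0 ± 38.5 FPKM in WT; adjusted p = 8.53e-10) and Ccl9 by -0.37 ± 0.03 (411 ± 1.55 FPKM in KO and 531 ± 13.4 FPKM in WT; adjusted p = 3.00e-06). Ccl3 averaged 809 ± 52.1 FPKM in KO and 841 ± 5.41 FPKM in WT, and its libraries overlapped (-0.06 ± 0.06, adjusted p = 0.41; 95% interval -0.19 to 0.07); this difference was 0.04 after rescaling to the same total and 0.0068 without the second KO agonist library. Ccl4 averaged 243 ± 13.0 FPKM in KO and 204 ± 5.43 FPKM in WT (0.25 ± 0.11, adjusted p = 0.0952; 95% interval -0.01 to 0.51). Its SE includes the wide WT vehicle pair, and without either WT vehicle library the same 0.25 had an SE of 0.04 and passed (adjusted p = 0.00118). For Ccl3 and Ccl4, the vehicle differences were thus the larger ones, and the response tests above give the change between the 2 treatments.

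Markers of other cell types moved with these differences. All 8 macrophage markers were lower in KO than in WT, with vehicle and with agonists, and their sum was 529 to 619.5 FPKM in KO libraries and 1265 to 1460 FPKM in WT libraries. The markers of megakaryocytes and platelets summed to 126 to 145 FPKM in KO and 1080 to 1314 FPKM in WT, although their defining genes Itga2b and Gp9 did not exceed 0.745 and 0.331 FPKM. The monocyte markers summed to 737 to 1049 FPKM in KO and 536 to 908 FPKM in WT, with 3 of 4 higher and 1 lower in KO. The dendritic markers were higher in KO for 6 of 7 tested with vehicle and 5 of 7 with agonists. The part of these cell types in the chemokine differences was not tested.

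**Figure D3:**
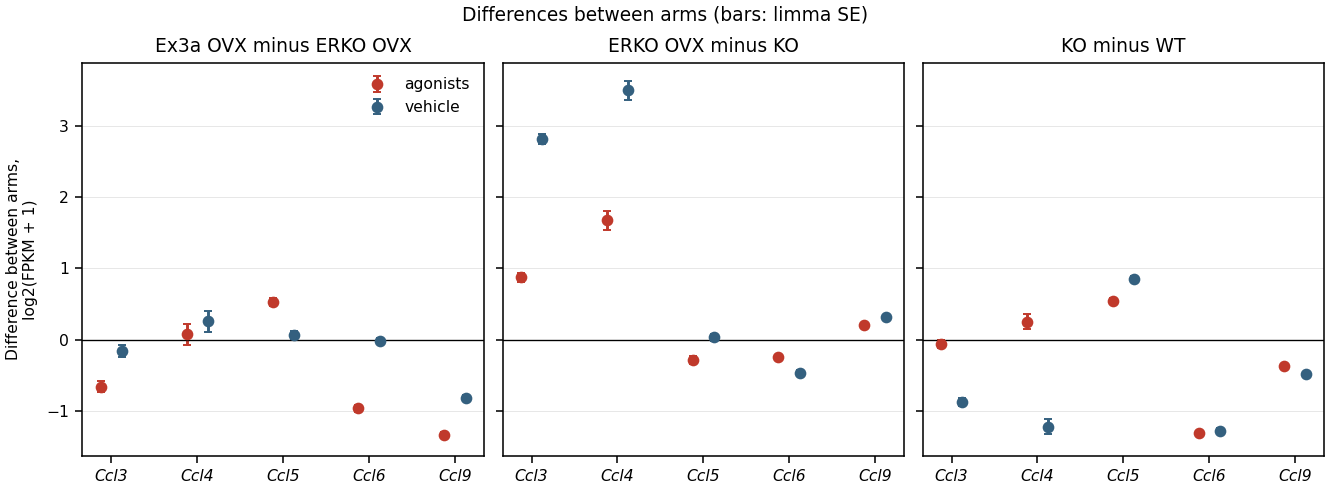
Difference between 2 arms in log2(FPKM + 1) (y axis) for each chemokine (x axis), red with agonists and blue with vehicle, with limma standard errors; above 0 means higher in the arm named first. In ERKO OVX minus KO, Ccl3 and Ccl4 were above 0 (2.82 and 3.51 with vehicle), while the values of Ccl9 (0.32 with vehicle, 0.20 with agonists) and of Ccl5 with vehicle (0.03) turned negative after rescaling to the same total, as did Ccl4 with agonists in Ex3a OVX minus ERKO OVX (0.07), and Ccl3 with agonists in KO minus WT (-0.06) turned positive.

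The comparison of Ex3a OVX with ERKO OVX sets the arm with the ERα null source label against the arm with the ERα short source label, both from ovariectomized, estradiol-treated mice. With 1 averaged sample in each arm, its tests borrow all of their spread from the unoperated libraries. With vehicle, only Ccl9 among the 5 passed (0 higher, 1 lower), against 55.2% of all genes (29.2% higher, 26.1% lower). It averaged 299 FPKM in Ex3a OVX and 529 FPKM in ERKO OVX (-0.82 ± 0.04, adjusted p = 1.13e-07). Ccl3 averaged 363 FPKM in Ex3a OVX and 406 FPKM in ERKO OVX (-0.16 ± 0.08, adjusted p = 0.123; 95% interval -0.34 to 0.02). Ccl5 averaged 8419 FPKM in Ex3a OVX and 8085 FPKM in ERKO OVX (0.06 ± 0.06, adjusted p = 0.426; 95% interval -0.07 to 0.19). Ccl6 averaged 657 FPKM in Ex3a OVX and 668 FPKM in ERKO OVX (-0.02 ± 0.04, adjusted p = 0.659; 95% interval -0.12 to 0.07), and none of these 3 passed. Neither did Ccl4 (346 FPKM in Ex3a OVX and 290 FPKM in ERKO OVX; 0.26 ± 0.15, adjusted p = 0.202; 95% interval -0.11 to 0.63), which passed without either WT vehicle library (adjusted p = 0.0065). With all 16 libraries as single samples, Ccl3 and Ccl4 both passed (adjusted p = 0.0077 and 0.0176).

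With agonists, 4 of the 5 passed (1 higher, 3 lower), against 62.7% of all genes (32.1% higher, 30.6% lower). Ccl9 averaged 186 FPKM in Ex3a OVX and 473 FPKM in ERKO OVX (0.394-fold; -1.34 ± 0.04, adjusted p = 4.73e-09). Ccl6 averaged 280.4 FPKM in Ex3a OVX and 550 FPKM in ERKO OVX (0.510-fold; -0.97 ± 0.04, adjusted p = 6.05e-08). Ccl3 averaged 937 FPKM in Ex3a OVX and 1481 FPKM in ERKO OVX (-0.66 ± 0.08, adjusted p = 9.95e-05), and Ccl5 averaged 11317 FPKM in Ex3a OVX and 7820 FPKM in ERKO OVX (0.53 ± 0.06, adjusted p = 3.62e-05). Ccl4 averaged 817 FPKM in Ex3a OVX and 777 FPKM in ERKO OVX (0.07 ± 0.15, adjusted p = 0.701; 95% interval -0.30 to 0.44), and this value was -0.08 after rescaling to the same total. Ccl9 and Ccl6 were at their lowest of the 8 group means in Ex3a OVX with agonists, in FPKM and as a share of summed FPKM. Beside these, 7 of 8 macrophage markers were higher in Ex3a OVX under each treatment (sums of 2839 to 3222 FPKM in Ex3a OVX and 1758 to 1763 FPKM in ERKO OVX). The neutrophil and precursor markers summed to 295 to 306 FPKM in Ex3a OVX and 1145 to 1299 FPKM in ERKO OVX. Most of this was S100a8 (173 FPKM in Ex3a OVX and 925 FPKM in ERKO OVX with vehicle) and S100a9 (58.3 and 291 FPKM). Mean FPKM of Mpo, Elane, Camp and Ngp was also lower in Ex3a OVX under each treatment. That of Prtn3 (18.7 and 6.90 FPKM with vehicle) and Ltf (2.08 and 1.25 FPKM) was higher. The megakaryocyte and platelet markers summed to 521 to 811 FPKM in Ex3a OVX and 69.6 to 78.0 FPKM in ERKO OVX. All 5 tested T and NK cell markers were also higher in Ex3a OVX, and all 6 basophil and mast cell markers were lower (35.2 to 53.8 FPKM in Ex3a OVX and 83.7 to 118 FPKM in ERKO OVX). Their part in the chemokine values was not tested.

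ERKO OVX against KO sets ovariectomized, pellet-bearing mice against unoperated mice under the same ERα short source label, and also shallower against deeper libraries. With vehicle, 4 of the 5 chemokines passed (3 higher, 1 lower), against 80.9% of all genes (41.0% higher, 39.9% lower). With agonists, 5 passed (3 higher, 2 lower), against 78.7% (40.1% higher, 38.5% lower). With vehicle, Ccl4 averaged 290 FPKM in ERKO OVX and 24.6 ± 0.971 FPKM in KO (11.8-fold; 3.51 ± 0.13, adjusted p = 6.72e-07), and Ccl3 averaged 406 FPKM in ERKO OVX and 56.8 ± 2.93 FPKM in KO (7.14-fold; 2.82 ± 0.07, adjusted p = 8.62e-10). With agonists the differences were 1.68 ± 0.13 for Ccl4 (777 FPKM in ERKO OVX and 243 ± 13.0 FPKM in KO; adjusted p = 3.38e-05) and 0.87 ± 0.07 for Ccl3 (1481 FPKM in ERKO OVX and 809 ± 52.1 FPKM in KO; adjusted p = 2.51e-06). Ccl6 was lower in ERKO OVX with vehicle (-0.46 ± 0.04, adjusted p = 1.15e-06) and with agonists (-0.25 ± 0.04, adjusted p = 1.32e-04).

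Between these 2 arms, the direction of the Ccl9 differences and of the Ccl5 difference with vehicle depended on scaling. The Ccl6 differences and the Ccl5 difference with agonists stayed below 0 under each alternative. For Ccl9, the difference passed in opposite directions in the deposited FPKM and after rescaling to the same total, under each treatment. Ccl9 was higher in ERKO OVX by 0.32 ± 0.03 with vehicle (adjusted p = 1.28e-05) and 0.20 ± 0.03 with agonists (adjusted p = 3.76e-04) in the deposited FPKM, but by -0.09 and -0.11 after rescaling to the same total. Ccl5 differed by 0.03 ± 0.05 with vehicle (adjusted p = 0.571) and by -0.29 ± 0.05 with agonists (adjusted p = 4.95e-04) in the deposited FPKM, and the vehicle value was -0.38 after rescaling (adjusted p = 5.79e-05) and -0.03 without the first KO vehicle library. That rescaling moved the median of all genes to -0.34 with vehicle and -0.26 with agonists, against 0.01 for each in the deposited FPKM. Ccl9 lay above that median under both scalings. Markers of other cells were far apart between these arms. The 4 monocyte markers summed to 4166 to 4225 FPKM in ERKO OVX and 737 to 1049 FPKM in KO (3 higher and 1 lower under each treatment). The 9 neutrophil and precursor markers summed to 1145 to 1299 FPKM in ERKO OVX and 96.2 to 119.8 FPKM in KO (8 of 8 tested higher). The 8 macrophage markers summed to 1758 to 1763 FPKM in ERKO OVX and 529 to 619.5 FPKM in KO, with 4 higher and 3 lower with vehicle. All 6 basophil and mast cell markers and all 5 tested T and NK cell markers were also higher in ERKO OVX, and both tested megakaryocyte and platelet markers were lower. Of 7 tested dendritic markers, 3 were higher and 4 lower under each treatment. The 3 higher ones with vehicle were H2-Aa (2191 FPKM in ERKO OVX and 841 FPKM in KO), Cd74 (7187 and 4203 FPKM) and Itgax (154 and 113 FPKM). The 4 lower ones were Zbtb46 (4.24 FPKM in ERKO OVX and 22.1 FPKM in KO), Ccr7 (505 and 1769 FPKM), Batf3 (30.7 and 69.4 FPKM) and Flt3 (1.55 and 3.93 FPKM). Their part in the chemokine values was not tested.

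Ordered by group mean FPKM, Ccl3 was highest in ERKO OVX with agonists, followed by Ex3a OVX, WT and KO with agonists, whose neighbours did not differ beyond their 95% intervals. Next came the vehicle groups of ERKO OVX and Ex3a OVX, which did not differ beyond their interval, then WT vehicle and KO vehicle. Ccl4 was highest in Ex3a OVX and ERKO OVX with agonists, whose interval included 0. Below these came Ex3a OVX vehicle, ERKO OVX vehicle, KO agonists and WT agonists, each neighbour within its interval, and then WT vehicle and KO vehicle. Ccl5 ran from Ex3a OVX with agonists through KO with agonists to Ex3a OVX vehicle, ERKO OVX vehicle, KO vehicle and ERKO OVX agonists, of which the last 4 had neighbours within their intervals, and then to WT agonists and WT vehicle. Ccl6 was highest in WT vehicle, WT agonists and KO vehicle, with ERKO OVX vehicle, Ex3a OVX vehicle and KO agonists alike within their intervals, then ERKO OVX agonists and Ex3a OVX agonists. For Ccl9, WT agonists and ERKO OVX vehicle shared the places after WT vehicle, and KO vehicle and KO agonists those before Ex3a OVX vehicle and Ex3a OVX agonists. The places of OVX against unoperated groups depended on scaling. As a share of summed FPKM, Ccl5 was 1.63% in Ex3a OVX with agonists and 1.96% in KO with agonists, and Ccl4 was 0.0445% in ERKO OVX with vehicle and 0.0498% in KO with agonists. Ccl3 was 0.135% in Ex3a OVX with agonists, 0.166% in KO with agonists and 0.161% in WT with agonists. Between the OVX arms with agonists, Ccl4 was 0.118% in Ex3a OVX and 0.127% in ERKO OVX.

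Pearson r was taken across the 8 group means of log2(FPKM + 1), which differ in depth between OVX and unoperated groups. Ccl3 and Ccl4 had an r of 0.91, Ccl6 and Ccl9 of 0.79 and Ccl5 and Ccl6 of -0.92. Among 2313 tested genes whose SD over the 8 means was at least 0.5, those most like Ccl3 were Tnf (r = 0.984), Ptgs2 (r = 0.982) and Il1a (r = 0.981), an inflammatory cytokine, the inducible cyclooxygenase and an interleukin 1. Most like Ccl4 were Sh3bp5 (r = 0.991), the adaptor Lcp2 (r = 0.980) and the transcription factor Cebpd (r = 0.980). Ccl5 was followed by Gypc (r = 0.955), the inflammatory caspase Casp4 (r = 0.907) and Pla2g16 (r = 0.893). Ccl6 had the scavenger receptor Cd36 (r = 0.964), the calpain Capn2 (r = 0.956) and Naaa (r = 0.949) nearest to it, and Ccl9 had the eosinophil attractant Ccl24 (r = 0.947), the laminin chain Lamc1 (r = 0.930) and Ear3 (r = 0.926). Each r describes 8 means and carries no test.

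The receptor gene Ccr1 fell with agonists in all 4 arms, while Ccrl2 rose in all 4. Of the 5 receptors and decoy receptors listed, Ccr1 and Ccrl2 were tested, and Ccr3, Ackr1 and Ackr2 did not exceed 0.683, 0.107 and 0.0572 FPKM. Ccr1, a receptor of Ccl3, Ccl5, Ccl6 and Ccl9, had 136 and 134 FPKM with agonists and 173 and 170.4 FPKM with vehicle in Ex3a OVX (-0.34 ± 0.04). It had 106 and 104 FPKM with agonists and 165 FPKM in both vehicle libraries of ERKO OVX (-0.64 ± 0.04). In KO it had 67.5 and 70.5 FPKM with agonists and 108 and 106 FPKM with vehicle (-0.63 ± 0.03), and in WT 92.6 and 89.7 FPKM with agonists and 140.2 and 141 FPKM with vehicle (-0.62 ± 0.03). Agonist and vehicle libraries did not overlap in any arm (adjusted p between 4.74e-08 and 1.36e-04). Ccrl2, an atypical receptor that binds chemerin, was higher by 0.66 ± 0.09 in Ex3a OVX, 0.80 ± 0.09 in ERKO OVX, 1.12 ± 0.07 in KO and 1.44 ± 0.07 in WT (adjusted p between 1.13e-07 and 7.26e-04).

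Between arms, Ccr1 was lower in KO than in WT by -0.40 ± 0.03 with agonists and -0.39 ± 0.03 with vehicle. Ccrl2 was higher in Ex3a OVX than its ERKO OVX level by 0.66 ± 0.09 with agonists and 0.80 ± 0.09 with vehicle. Ccr1 was higher in ERKO OVX than in KO by 0.60 ± 0.03 with agonists and 0.62 ± 0.03 with vehicle (adjusted p at most 2.34e-04 for each of these).

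**Figure D4:**
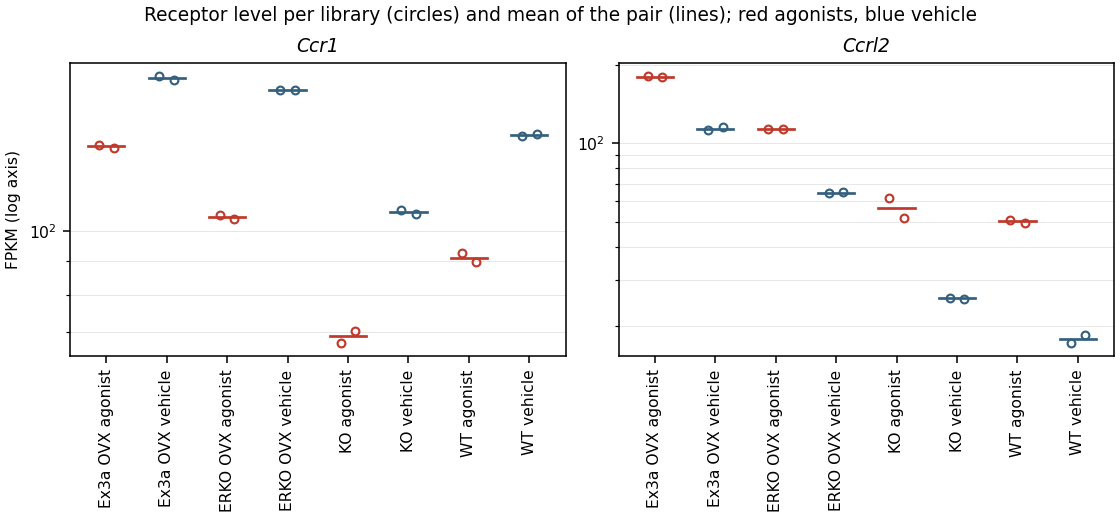
FPKM of the receptor genes Ccr1 and Ccrl2 (y axis, logarithmic and scaled separately for each gene) in the 2 libraries of each group (x axis); circles are libraries, lines the mean of the pair, red agonists and blue vehicle. In each arm Ccr1 was lower and Ccrl2 was higher with agonists; Ccr1 had 67.5 and 70.5 FPKM in KO with agonists and 173 and 170.4 FPKM in Ex3a OVX with vehicle.

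The other CC chemokines were counted beside the 5. Of 14 listed, 9 were over the filter (8 tested where KO agonist libraries enter, since Ccl22 was missing there). With agonists, 3 rose and 1 fell in Ex3a OVX, 2 rose and 2 fell in ERKO OVX, 4 rose and 2 fell in KO, and 3 rose and 3 fell in WT. Passing in either direction were thus 4 of 9 in Ex3a OVX, against 37.3% of all genes, 4 of 9 in ERKO OVX, against 37.5%, 6 of 8 in KO, against 51.3%, and 6 of 9 in WT, against 57.9%. Ccl22 and Ccl17, dendritic cell products that attract T cells, rose in WT by 1.78 ± 0.03 and 1.48 ± 0.03 (adjusted p = 8.21e-10 and 5.63e-10). The monocyte attractant Ccl7 rose in KO by 1.19 ± 0.04 (adjusted p = 1.46e-08) and fell in WT by 0.32 ± 0.04 (adjusted p = 1.03e-04). It averaged 32.0 FPKM with agonists and 18.0 FPKM with vehicle in ERKO OVX, and 358 and 353 FPKM in Ex3a OVX. Against WT with vehicle, KO cells had less Ccl7 (8.31 FPKM in KO and 72.0 FPKM in WT; -2.97 ± 0.04, adjusted p = 2.28e-11). They had more Ccl22 (6804 FPKM in KO and 3375 FPKM in WT, 1.01 ± 0.03, adjusted p = 2.82e-08). In KO, 2 of 9 were higher and 5 lower, against 31.5% of all genes higher and 28.7% lower. For the next comparison, of Ex3a OVX with ERKO OVX under vehicle, these shares of all genes were 29.2% and 26.1%. Ex3a OVX cells with vehicle had more Ccl7 (353 FPKM in Ex3a OVX and 18.0 FPKM in ERKO OVX; 4.22 ± 0.06, adjusted p = 6.62e-11). They had less Ccl17 (349 FPKM in Ex3a OVX and 1719 FPKM in ERKO OVX; -2.30 ± 0.05, adjusted p = 4.39e-10), with 3 of 9 higher and 3 lower.

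Genes upstream of the chemokines were counted in the same way. With agonists, 37.3% of all genes passed in either direction in Ex3a OVX, 37.5% in ERKO OVX, 51.3% in KO and 57.9% in WT. These shares apply to the lists here and in the next paragraph. Of 20 NF-kB, IRF, AP-1, C/EBP and PU.1 factors, 9 rose and 7 fell with agonists in Ex3a OVX, 7 and 5 in ERKO OVX, 12 and 5 in KO, and 12 and 4 in WT. Nfkb1 rose in ERKO OVX by 0.48 ± 0.03 (adjusted p = 9.09e-06) and in WT by 0.55 ± 0.02 (adjusted p = 2.61e-08). Batf rose in Ex3a OVX by 0.94 ± 0.05 (adjusted p = 1.62e-06), in KO by 1.09 ± 0.03 (adjusted p = 7.68e-09) and in WT by 0.89 ± 0.03 (adjusted p = 1.77e-08). By group means, Batf was also higher with agonists in ERKO OVX (90.5 FPKM, against 71.7 FPKM with vehicle). Nfkb1 was likewise higher in Ex3a OVX (65.4 and 56.4 FPKM) and KO (124 and 93.9 FPKM). Fos fell in each arm (by 0.92 ± 0.09 in Ex3a OVX, 0.81 ± 0.09 in ERKO OVX, 1.49 ± 0.07 in KO and 1.07 ± 0.07 in WT). Cebpa and Cebpb, myeloid C/EBP factors, were lower in KO than in WT with vehicle by -1.06 ± 0.04 (adjusted p = 4.06e-08) and -0.74 ± 0.06 (adjusted p = 2.98e-06). Relb and Rel, NF-kB subunits, were higher by 0.70 ± 0.03 (adjusted p = 2.44e-08) and 0.54 ± 0.03 (adjusted p = 3.37e-07). Of 15 genes of the TLR7 and TLR9 pathway, 5 rose and 3 fell in Ex3a OVX, 7 and 3 in ERKO OVX, 10 and 4 in KO, and 9 and 3 in WT. The inhibitory kinase Irak3 rose in each arm, by 0.80 ± 0.06 in Ex3a OVX, 0.70 ± 0.06 in ERKO OVX, 1.41 ± 0.04 in KO and 1.82 ± 0.04 in WT. Tlr9 itself fell by 0.24 ± 0.05 in Ex3a OVX, 0.26 ± 0.05 in ERKO OVX, 0.35 ± 0.03 in KO and 0.46 ± 0.03 in WT.

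Of 10 genes of mRNA decay and NF-kB feedback, 4 rose and 4 fell with agonists in Ex3a OVX, 6 and 1 in ERKO OVX, 6 and 2 in KO, and 7 and 2 in WT. Nfkbiz, an inducible nuclear IkB protein, had the largest rise of the list in each arm, 1.12 ± 0.05 in Ex3a OVX, 1.20 ± 0.05 in ERKO OVX, 2.47 ± 0.04 in KO and 2.98 ± 0.04 in WT. The RNase gene Zc3h12a rose by 0.55 ± 0.04 in Ex3a OVX, 1.13 ± 0.04 in ERKO OVX, 1.52 ± 0.03 in KO and 1.97 ± 0.03 in WT. Among 11 tested of 12 proteases and carriers that act on chemokines, 4 rose and 4 fell in Ex3a OVX, 5 and 2 in ERKO OVX, 6 and 4 in KO, and 5 and 5 in WT. The carboxypeptidase Cpd rose in each arm (0.66 ± 0.06 in Ex3a OVX, 0.66 ± 0.06 in ERKO OVX, 1.16 ± 0.04 in KO and 1.08 ± 0.04 in WT). Against WT with vehicle, 9 of these 11 were lower in KO and none higher, against 28.7% of all genes lower and 31.5% higher. The largest differences were in the metalloproteinases Mmp13 (31.2 FPKM in KO and 171 FPKM in WT, -2.42 ± 0.03, adjusted p = 2.05e-11) and Mmp9 (9.75 FPKM in KO and 44.5 FPKM in WT, -2.08 ± 0.04, adjusted p = 1.44e-10).

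Neighbours of the cluster were counted in the same way. The shares of all genes passing in either direction with agonists were again 37.3% in Ex3a OVX, 37.5% in ERKO OVX, 51.3% in KO and 57.9% in WT. Within 250 kb of the 5 chemokines the annotation holds 34 genes, of which 15 were tested, the 5 chemokines and 10 neighbours. With agonists, 4 of the 10 neighbours rose and 0 fell in Ex3a OVX, 3 rose and 1 fell in ERKO OVX, 5 rose and 1 fell in KO, and 7 rose and 1 fell in WT, with medians between 0.13 and 0.19. Wfdc17, past Ccl4 on the same strand, was the only neighbour that rose in all 4 arms (0.67 in Ex3a OVX, 0.42 in ERKO OVX, 0.91 in KO and 0.58 in WT; adjusted p between 7.48e-08 and 4.89e-04). E230016K23Rik, which overlaps Ccl6, fell in ERKO OVX (-0.27, adjusted p = 0.0398), KO (-0.55, adjusted p = 6.05e-05) and WT (-1.07, adjusted p = 4.46e-07). In KO against WT, 2 of the 10 neighbours were higher and 2 lower with each treatment. Of all genes, 54.8% passed in either direction with agonists and 60.3% with vehicle. Heatr9, just beyond Ccl5, was higher in KO as Ccl5 was, by 0.75 with agonists (adjusted p = 3.34e-06) and 0.96 with vehicle (adjusted p = 4.90e-07). In ERKO OVX against KO, Wfdc17 differed by 2.19 with agonists and 2.67 with vehicle, and Heatr9 by -1.84 with agonists and -1.95 with vehicle.

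**Figure D5:**
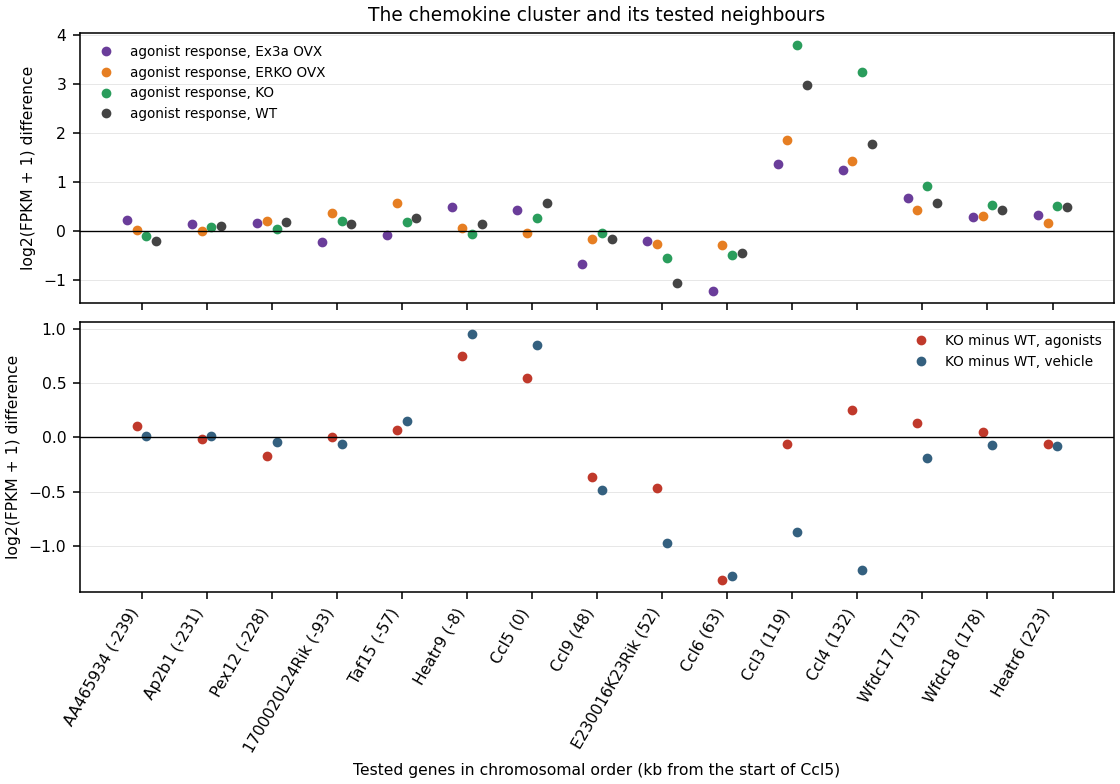
Log2(FPKM + 1) differences (y axis) of the 15 tested genes at the cluster in chromosomal order (x axis, distance from the start of Ccl5 in kb in brackets); above, agonists minus vehicle in the 4 arms, below, KO minus WT with agonists (red) and vehicle (blue). Ccl3 and Ccl4 stood above the other genes in the agonist response (up to 3.81 and 3.25 in KO). In KO minus WT, Ccl6 stood below the others with agonists (-1.32). With vehicle, Ccl6 (-1.28) and Ccl4 (-1.22) lay lowest and close together.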

How the data were processed

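RNA of 16 bone marrow dendritic cell libraries (8 groups of 2) was sequenced as paired ends with a kit that does not mark strand, per the labels' protocols. The authors deposited FPKM values per gene; cutadapt, FastQC, STAR, HTSeq, DESeq2 and the build mm10 are named in the submitters' processing notes, with no versions; their settings are not given in the sources used here. Since FPKM are not counts, values were tested as log2(FPKM + 1) with limma 3.58.1 (trend and robust) in R 4.3.3, with Python 3.11.15, 1 coefficient per group and 12 samples: the 8 unoperated libraries and 4 averaged OVX pairs, leaving 4 residual degrees of freedom (median prior 5.5). Rows of small RNAs (1234) were left out, and 5 zeros in 4 genes otherwise well above 0 were taken as missing, Ccl22 in KO agonist libraries among them. Genes needed at least 1 FPKM in at least 2 libraries (11347). P-values were adjusted by Benjamini-Hochberg over all of them, threshold 0.05. The fit was tested on simulated data. 13 comparisons and 25 alternatives were run (pseudocounts 0.1 and 5, no filter, 2 scalings, 16 single libraries, no trend, replicate block, each library left out).

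The 5 chemokines are the rows with those symbols; receptors, neighbours within 250 kb and lists were named by fixed rules: from a list, up to 2 genes with the largest change in each direction among those that passed; beside a chemokine, the 3 genes of highest correlation. Of 145 listed genes, 143 matched a row. One listed gene is not reported here. The members, lists and tests were chosen with earlier results of these data known.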

Additional observations from a re-analysis of the deposited data

Results flagged for a closer look

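The 11 results below were singled out because the agonist response of 1 chemokine differed between 2 arms by a direct test of the difference of differences in limma (adjusted p under 0.05 over all genes; values in log2 units, first arm minus second). They come from 15 such tests, 5 genes in each of 3 comparisons.

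In KO minus WT, Ccl3 differed by 0.81, Ccl4 by 1.47 and Ccl5 by -0.30. The agonist levels of Ccl3 overlapped between the 2 arms (845 and 772 FPKM in KO, 845 and 838 FPKM in WT), while its vehicle levels did not (54.8 and 58.9 FPKM in KO, 99.5 and 110.4 FPKM in WT).

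All 4 groups of Ex3a OVX minus ERKO OVX are single averaged samples, so the spread comes from the unoperated libraries. There, Ccl3 differed by -0.50, Ccl5 by 0.47, Ccl6 by -0.94 and Ccl9 by -0.52. Ccl6 had 657 and 656 FPKM in Ex3a OVX and 674 and 661 FPKM in ERKO OVX with vehicle, but 279 and 282 FPKM in Ex3a OVX and 549 and 550.0 FPKM in ERKO OVX with agonists.

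In ERKO OVX minus KO, Ccl3 differed by -1.94, Ccl4 by -1.83, Ccl5 by -0.32 and Ccl6 by 0.21. Surgery, pellet and the differences in depth and summed FPKM between these libraries cannot be told apart in this comparison.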

How the results depend on the processing

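Each of the 65 chemokine values was recomputed under 25 alternatives. Of the resulting 1625 values, 1590 kept direction and side of the threshold, 9 lost the call, 16 gained it and 10 changed sign. In Ex3a OVX against ERKO OVX with vehicle, 1 chemokine passed; 3 did with 16 libraries as single samples and with the replicate block over 16 libraries, and 1 to 2 when a library was left out (2 without either WT vehicle library). In the response of ERKO OVX minus KO, 4 passed, and 2 with no filter on low values. For the other comparisons, leaving out a library gave counts within 1 of those reported.

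After rescaling to the same total, sign changes were Ccl5 in the ERKO OVX agonist response (0.030), Ccl3 in KO against WT with agonists (0.041), Ccl4 in Ex3a OVX against ERKO OVX with agonists (-0.082), Ccl5 and Ccl9 in ERKO OVX against KO with vehicle (-0.38 and -0.091), Ccl9 there with agonists (-0.11) and Ccl6 in KO minus WT (0.041). That rescaling moved the all-gene median by over 0.1 in ERKO OVX against KO (-0.34 with vehicle, -0.26 with agonists), in Ex3a OVX against ERKO OVX with agonists (-0.12) and in the response of Ex3a OVX minus ERKO OVX (-0.11). The share of called genes that were higher moved to 34.0%, against 51.1%, for the agonist response in Ex3a OVX, to 70.2% (48.9%) in ERKO OVX and to 32.4% (53.3%) in WT. It moved to 71.3% (49.6%) for KO against WT with agonists, 30.5% (51.2%) for Ex3a OVX against ERKO OVX with agonists, and 22.3% (50.7%) with vehicle and 26.2% (51.0%) with agonists for ERKO OVX against KO. For the differences of responses it moved to 74.8% (33.1%) in KO minus WT, 21.6% (53.2%) in Ex3a OVX minus ERKO OVX and 75.6% (47.7%) in ERKO OVX minus KO. Median-of-ratios scaling changed none of the chemokine calls. Leaving out a library changed the sign of Ccl3 in KO against WT with agonists (0.0068 without the second KO agonist library), of Ccl5 in ERKO OVX against KO with vehicle (-0.025 without the first KO vehicle library, 0.089 without the second) and of Ccl6 in KO minus WT (0.0083 without the first KO agonist library, -0.083 without the second); none of these passed either way. The causes of these changes were not tested.

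Over all genes, the response of KO minus WT called 789 genes, against 404 with no filter, and 431 without the first or second WT vehicle library, 434 and 499 without the first and second KO vehicle library and 485 without the second WT agonist library. Ex3a OVX minus ERKO OVX called 3552, against 5533 with 16 libraries and 5502 with the block over 16. Same-numbered unoperated libraries did not deviate together over all tested genes (r between -0.0738 and 0.0743). This cannot decide whether the numbers pair samples, since a shared mouse or preparation need not move most genes. With the replicate number as a block over 12 samples, no chemokine call changed (Ccl5 in KO minus WT, -0.30, adjusted p = 0.0085). With 2 libraries or 1 averaged pair per group and unknown exact depth, no counting interval can be given.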
